A study of Mus musculus with 8 samples.

Results

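The mRNAs of 48 large chromatin regulators, Spen among them, were followed through RNA immunoprecipitation (RIP) of Flag-tagged eIF4A2 in mouse embryonic stem cells (ESCs). The genes were chosen by symbol as histone methyltransferases, histone acetyltransferases, chromatin remodellers, co-repressors, TET enzymes and histone demethylases that mostly have long mRNAs, and all 48 were found among the 52550 genes counted. Of these, 47 were among the 10754 genes that reached a CPM of at least 1 (counts scaled to the same total of gene reads in every library) in all 4 input libraries and were tested. The gene that missed this limit was Smarca2, which encodes an ATPase of the SWI/SNF remodeller. In input EV it was at 1.1 and 2.18 CPM, in input Eif4a2flag at 4.98 and 0.642 CPM, in RIP EV at 0 and 12.3 CPM and in RIP Eif4a2flag at 3.48 and 4.61 CPM.

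Every library came from Eif4a2 KO ESCs grown in ES-DMEM with 2i (1.5 µM CHIR99021 and 0.5 µM PD0325901) and 10 ng/ml LIF. The KO cells carried either the empty vector (EV) or Eif4a2flag, and from each kind of cell RNA was sequenced from the input lysate and from the immunoprecipitate of 5 µg anti-Flag M2 antibody after 3 h. This gave 4 groups of 2 libraries, named input EV, input Eif4a2flag, RIP EV and RIP Eif4a2flag. According to the methods, Eif4a2 KO cells were clonal, the tagged protein was expressed from a transposon-based vector, and different clones served as replicates of re-expressing cells. How the EV replicates were derived is not given in the sources used here, so for these groups p-values may measure technical spread alone. One label field of RIP Eif4a2flag replicate 2 names Eif4a3, whereas its title, source and the other fields name Eif4a2flag, and it was used by its title.

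eIF4A2 is a DEAD-box RNA helicase that can take the place of eIF4A1 in eIF4F, the complex that binds the cap of an mRNA and unwinds its leader so that ribosomes can load. The proteins encoded by the 48 genes write, read or erase marks on histones and DNA or slide nucleosomes, and most are multidomain subunits around which larger complexes assemble. In ESCs such complexes keep pluripotency genes active and hold developmental genes ready for differentiation, and Spen is known for the silencing of genes on the inactive X chromosome.

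Depth on genes was lowest in RIP EV replicate 1, at 2044853 reads, and highest in RIP Eif4a2flag replicate 1, at 11206420. Outside annotated exons lay 45.8% and 29.7% of the reads in the RIP EV libraries, 3.30% and 4.13% in RIP Eif4a2flag, and 8.58% to 17.6% in the inputs. Of the 10754 genes tested, 6086 and 8200 had any read in RIP EV, against 10721 and 10698 in RIP Eif4a2flag. The replicates of RIP EV also differed most, with a biological coefficient of variation of 170.9% over all genes tested, against 23.1% to 30.1% in the other groups. The tested statements below are therefore made on the 4 libraries compared, and counts from a spread shared by all 8 stand beside them. Eif4a2 itself stood in input EV at 53.8 and 94.2 CPM and in input Eif4a2flag at 86.8 and 69.1 CPM, ranges that overlap, and whether these 3′ tags lie within the deleted part or reach the re-expressed mRNA was not determined. The 7 ESC markers summed to between 957 and 2589 CPM in every library, with 1 of 7 at 0 in each RIP EV library. The 5 fibroblast markers summed to 76.3 CPM in RIP EV replicate 1, with 3 of 5 at 0, and to 3.59 to 6.87 CPM elsewhere, and endoderm, mesoderm and neural markers to at most 19.5 CPM a list. The part of these differences between libraries in the values below was not tested.

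The libraries read the 3′ ends of polyadenylated RNA, so the sequence at the end of each mRNA decides where its reads lie. Bases at the end of 6 mRNAs are shown because these genes were among the 4 highest or the 4 lowest of the group in RIP over input, as described below, and Kdm3b and Tet3 of those 8 are not shown. They were read 5′ to 3′ from the GRCm38 genome at the ends annotated by GENCODE M21, on the strand of the gene, with a polyadenylation hexamer (AATAAA or its variant ATTAAA) in capitals where one was found. The window of Chd7 ends 3 bases before the annotated end, so that it holds the hexamer, and the others end at it.
Spen, chr4:141467890-141467919, minus strand: attacaaactttATTAAAaaatacaaaaca
Kmt2d, chr15:98831672-98831701, minus strand: acgataAATAAAaaaagaacattttaaata
Chd7, chr4:8867627-8867656, plus strand: ttAATAAAagtgacccatgatatgcagaga
Setd1b, chr5:123168600-123168629, plus strand: gcaaaccataaatatactgacttttcttac
Kmt2e, chr5:23504206-23504235, plus strand: atatgactgaaatagctccactaatcaaaa
Ash1l, chr3:89079346-89079375, plus strand: ctagcATTAAAtggaaacaacttttcctaa
A hexamer lay in the windows of Spen, Kmt2d, Chd7 and Ash1l, and none was in the letters shown for Setd1b and Kmt2e. Over the group, AATAAA lay within the last 40 bases of 27 of 47 mRNAs (57.4%), against 60.6% of the 10088 mRNAs of tested genes, and AATAAA or ATTAAA in 74.5% against 74.7%. All searches were made on the mRNA strand.

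Oligo(dT) can also prime on stretches of A within an mRNA. The windows of 30 bases with the most A in the coding sequence of the same 6 genes are shown for this reason, with runs of at least 6 A in capitals.
Spen, chr4:141478256-141478285, minus strand: gaaaatagaaaagcaaaaaccagaaatcaa
Kmt2d, chr15:98846040-98846069, minus strand: caacaacaacaacagcaacaacaacagcaa
Chd7, chr4:8785458-8785487, plus strand: acagcagaagaagaagaaaaagaaaaacaa
Setd1b, chr5:123157537-123157566, plus strand: cagacaaggaagaggaggaccgagaaagca
Kmt2e, chr5:23485447-23485476, plus strand: accagaaggAAAAAAggAAAAAAAgagaaa
Ash1l, chr3:88982931-88982960, plus strand: aaaccattgAAAAAAAgaaaaggaagaaaa
These windows held 20 A in Spen, 18 in Kmt2d and 14 in Setd1b, and 21 in each of Chd7, Kmt2e and Ash1l. A run of at least 8 A occurred in the coding sequence of 7 of the 47 members (14.9%), against 3.43% of all tested mRNAs, whose coding sequences were shorter (median 1380 bases, against 6220.5 in the members). Such a run was present in 4 of the 23 members called higher in RIP than input and in 3 of the 24 others. Anywhere in the mRNA, a run of at least 12 A occurred in 18 of the 47 members (38.3%), against 9.55% of all tested mRNAs. The transcripts of the members were also longer (median 8717.5 bases for the longest annotated, against 3293 over all genes tested). The part of internal priming in the counts was not tested.

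In the inputs the group was expressed over a wide range. The mean over the 4 inputs ran from 2.13 to 416 CPM with a median of 47.5 CPM, against a median of 22.6 CPM over all genes tested. Since about 1 tag is made per polyadenylated mRNA, CPM was not divided by length. The highest was Chd4, the ATPase of the NuRD complex, with 519 and 196 CPM in EV inputs and 597 and 351 CPM in Eif4a2flag inputs. Kat6b, a MYST family acetyltransferase, had 347 and 255 CPM, and 542 and 214 CPM. The lowest tested were Srcap, at 1.79 and 3.74 CPM in EV inputs and 1.73 and 2.57 CPM in Eif4a2flag inputs, and Bcor. Added up, the 48 mRNAs made up 4100 and 3541 CPM of the EV inputs and 4910 and 3071 CPM of the Eif4a2flag inputs. The sum rose to 10346 and 13299 CPM in RIP Eif4a2flag, and it was 7513 and 7595 CPM in RIP EV. Both RIP groups thus held a larger share of these mRNAs than any input.

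**Figure D1:**
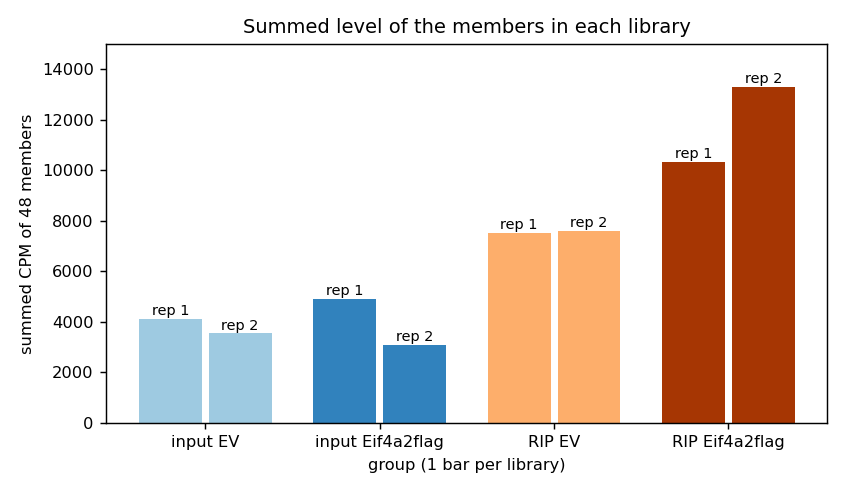
Summed level of the 48 mRNAs (CPM, linear axis from 0) in each of the 8 libraries by group. The 4 inputs lie between 3071 and 4910 CPM, RIP EV at 7513 and 7595 CPM, and RIP Eif4a2flag at 10346 and 13299 CPM.

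To ask which mRNAs came down with eIF4A2 beyond their abundance, RIP Eif4a2flag was compared with input Eif4a2flag. Of the 47 members tested, 23 were higher in the RIP and 0 were lower (edgeR quasi-likelihood test, adjusted p under 0.05), against 8.44% of all 10754 genes higher and 8.46% lower. Without adjustment, at p under 0.05, the counts were 36 and 0, against 1863 and 1800 of all 10754 genes. The median log2 fold change of the members was 1.35, and that of all genes was 0.02. For 44 members both RIP libraries lay above both inputs, as they did for 45.8% of all genes, and 46 of 47 fold changes were above 0. The counts rested on the spread assumed: DESeq2 called 29 members higher on the same 4 libraries (9.27% of all genes). Fitted to all 8 libraries with 1 quality weight per group, limma voom called 31 (8.90%). DESeq2 on all 8 libraries called 10 (2.55%) and edgeR on all 8 called 0 of the members and 0 of all genes. No member was called lower by any of these, against 10.2%, 9.65%, 4.00% and 0.0558% of all genes in the same order. The edgeR count was higher without input Eif4a2flag replicate 1. It was lower without RIP Eif4a2flag replicate 2, the library with the label that names Eif4a3. Such fits keep 1 library in a group and have no share of all genes beside them, so their counts are not given. On library size alone 38 members were higher, and over all genes 1933 were higher and 567 lower, against 908 and 910 with TMM. The all-gene median was then 0.32, and the excess of the member median over it was 1.33 with either scaling.

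**Figure D2:**
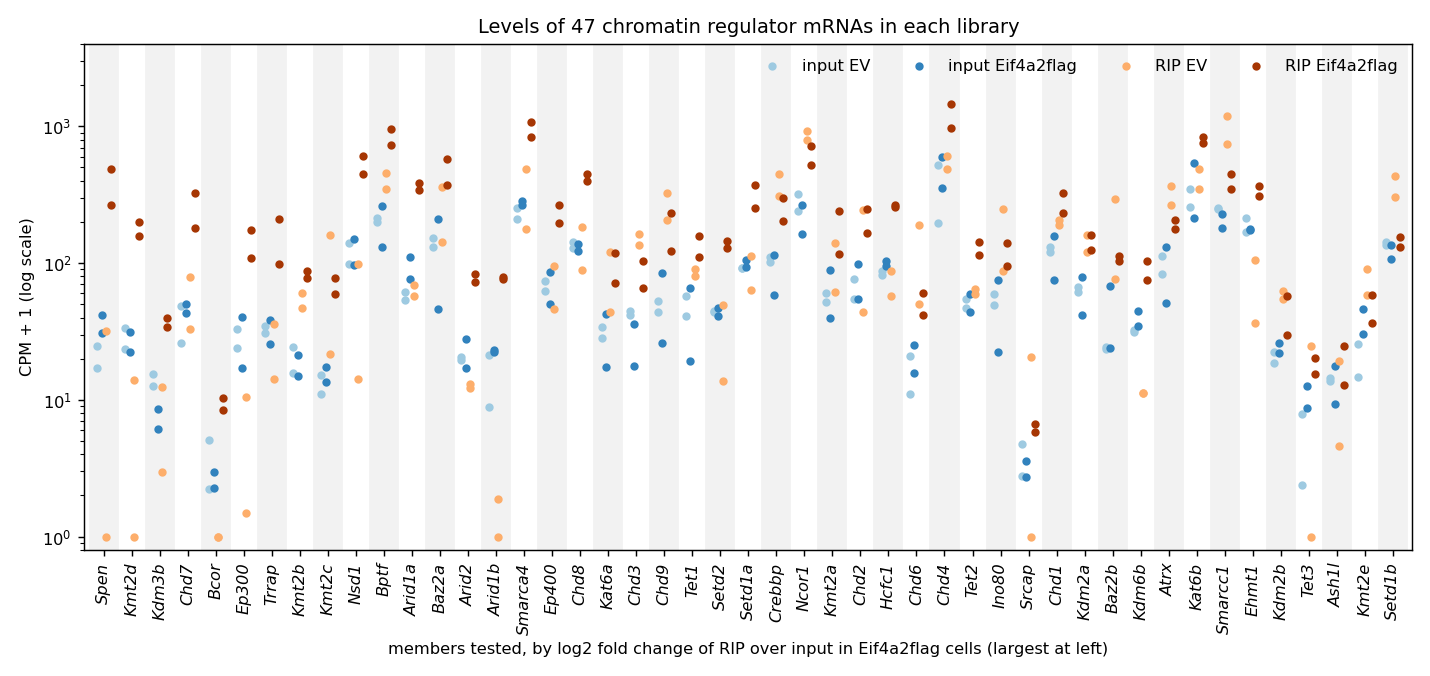
Level of each of the 47 mRNAs tested (CPM + 1 on a log axis, so a level of 0 lies at 1) in each library, ordered by log2 fold change of RIP over input in Eif4a2flag cells, with 1 point for each library and a colour for each of the 4 groups. Spen lies at 263 and 490.1 CPM in RIP Eif4a2flag and at 40.7 and 29.9 CPM in its input, and Setd1b at 155 and 131 CPM against 106 and 134 CPM.

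All 4 co-repressor scaffolds tested rose. Spen, an RNA-binding protein that recruits histone deacetylase complexes, lies on chromosome 4 from 141467890 to 141538597 on the minus strand, and its mRNA had 40.7 and 29.9 CPM in input Eif4a2flag and 263 and 490.1 CPM in RIP Eif4a2flag. Both RIP values exceeded both inputs by far, and the log2 fold change was 3.12 ± 0.39 (SE, n = 2 against 2, edgeR adjusted p = 0.00241), rank 4 of 10754 genes. Spen was used by the study as a positive control picked on these libraries, so its rise is a description and no independent evidence. Bcor, a co-repressor of BCL6 and subunit of a variant Polycomb complex, was rare, with 1.95 and 1.28 CPM in the input and 9.28 and 7.42 CPM in the RIP (log2 fold change 2.07, edgeR adjusted p = 0.0252). Ncor1, the nuclear receptor co-repressor, went from 265 and 163 CPM to 525 and 714 CPM (1.22, edgeR adjusted p = 0.0371), although another gene, Ttc19, overlaps its last exon and the strand setting of the counting is unknown. Hcfc1, a host cell factor that tethers methyltransferase complexes to transcription factors, went from 95 and 103 CPM to 263 and 257 CPM (1.09, edgeR adjusted p = 0.0213). None of these 4 had overlapping values between RIP and input.

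Among the H3K4 methyltransferases, 4 of 7 rose, and the family held both the second highest and the lowest value of the group. Kmt2d, which marks enhancers, had 30.3 and 21.5 CPM in input Eif4a2flag and 156 and 199 CPM in RIP Eif4a2flag, a log2 fold change of 2.47 ± 0.32 (SE, n = 2 against 2, edgeR adjusted p = 0.00273). Its mRNA was the longest of the group, at 19823 bases. The others called higher were Kmt2b (1.96), which acts at promoters of developmental genes, Kmt2c (1.92), the partner enzyme of Kmt2d at enhancers, and Setd1a (1.35), a broad promoter enzyme for which 51.8% of exon bases are shared with another gene. Kmt2a, the trithorax homolog, had 87.9 and 38.7 CPM in the input and 116 and 241 CPM in the RIP, which did not overlap, but the fold change of 1.19 missed the threshold (edgeR adjusted p = 0.104). Setd1b, the paralog of Setd1a, had 106 and 134 CPM in the input and 155 and 131 CPM in the RIP, and the groups overlapped (-0.05, edgeR adjusted p = 0.918). Kmt2e, a member of the family that binds H3K4 methylation rather than writing it, had 45.2 and 29.2 CPM and 35.7 and 57.7 CPM, with overlap again (0.02, edgeR adjusted p = 0.973), and its 3′ end overlaps that of Srpk2. The paralogs Setd1a and Setd1b were thus on different sides of the threshold, though the difference between them was not tested.

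Of the methyltransferases for H3K36 and H3K9, Nsd1 and Setd2 rose. Nsd1, which places H3K36 dimethylation, went from 150.2 and 95.1 CPM to 448 and 608 CPM (log2 fold change 1.79, edgeR adjusted p = 0.00959). Setd2, the H3K36 trimethylase that travels with RNA polymerase II, had a fold change of 1.35 (edgeR adjusted p = 0.0124). Ehmt1, the H3K9 methyltransferase GLP, had 174 and 177 CPM in the input and 309.7 and 368 CPM in the RIP, which did not overlap (0.64, edgeR adjusted p = 0.121). Ash1l, an H3K36 methyltransferase of the trithorax group, was low throughout, with 16.7 and 8.35 CPM and 11.9 and 23.8 CPM, and the groups overlapped (0.21, edgeR adjusted p = 0.787).

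Of the 5 acetyltransferases and their scaffold, Ep300 and Trrap rose. Ep300, the co-activator p300, had 39.4 and 16.1 CPM in input Eif4a2flag and 108 and 173 CPM in RIP Eif4a2flag (log2 fold change 2.03, edgeR adjusted p = 0.0164). Its paralog Crebbp, or CBP, had 113 and 57.2 CPM and 201 and 298 CPM, also without overlap, and missed the threshold narrowly (1.24, edgeR adjusted p = 0.0521). Trrap, the scaffold shared by acetyltransferase complexes, had a fold change of 2.00 (edgeR adjusted p = 0.0135). The MYST enzymes Kat6a and Kat6b had fold changes of 1.39 and 0.74 and were not called.

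The 20 ATP-dependent remodeller genes tested had log2 fold changes between 0.65 and 2.16. Of the 8 CHD proteins, Chd7, Chd8 and Chd3 rose, and the 8 fold changes lay between 0.95 and 2.16. Chd7, which binds enhancers and is mutated in CHARGE syndrome, had 49.1 and 42.4 CPM in the input and 180.4 and 324 CPM in the RIP (2.16 ± 0.35, SE, n = 2 against 2, edgeR adjusted p = 0.00582). Chd8, a repressor of Wnt target genes, reached 1.39, and Chd3, an ATPase of NuRD like Chd4, reached 1.38. Chd4 itself had 597 and 351 CPM and 972 and 1444 CPM, without overlap, and missed the threshold (1.04, edgeR adjusted p = 0.0751), as did Chd1, Chd2, Chd6 and Chd9.

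In the SWI/SNF complexes 4 of 5 subunits rose, namely Arid1a (log2 fold change 1.66), Arid2 (1.52), Arid1b (1.51) and the ATPase Smarca4 (1.49). Another gene, Gm25397, overlaps the 3′ end of Arid2. The ARID proteins define which form of the complex assembles. Smarca4, or BRG1, went from 283 and 267 CPM to 829 and 1082 CPM (edgeR adjusted p = 0.0105). The core subunit Smarcc1 had 229 and 178 CPM and 348 and 444 CPM, a fold change of 0.65 that was not called (edgeR adjusted p = 0.149). In the SWR1/INO80 class Ep400 rose (1.47), and Ino80 (0.98) and Srcap (0.96) did not pass; 65.0% of the exon bases of Srcap are shared with other genes. Of the ISWI partners and Atrx, Bptf rose. This large subunit of NURF went from 259.7 and 131 CPM to 730.4 and 954 CPM (1.79, edgeR adjusted p = 0.0145), whereas Baz2a (1.57), Baz2b (0.93) and Atrx (0.76) did not pass.

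Among the enzymes that remove methyl groups, 1 of 3 TET genes and 1 of 4 demethylases rose. Tet2, which oxidises 5-methylcytosine, had a log2 fold change of 1.03 (edgeR adjusted p = 0.0396). Tet1 reached 1.36 with 64.5 and 18.2 CPM in the input and 109.7 and 155 CPM in the RIP. Its inputs lay far apart, and it was not called (edgeR adjusted p = 0.0931). Tet3 was low, with 7.79 and 11.7 CPM and 14.5 and 19.2 CPM (0.49, edgeR adjusted p = 0.384). The H3K9 demethylase Kdm3b rose from 7.57 and 5.14 CPM to 32.8 and 38.5 CPM (2.19 ± 0.36, SE, n = 2 against 2, edgeR adjusted p = 0.00606), although 24.6% of its exon bases are shared with another gene. Kdm2a (0.94) and Kdm2b (0.60), which bind CpG islands, and the H3K27 demethylase Kdm6b (0.89) did not pass. Rnf34 overlaps the 3′ end of Kdm2b.

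To see whether shared membership of a complex or length went with recovery, 64 subunits of the same complexes and 45 long mRNAs of cytosolic or cytoskeletal proteins were set beside the members. The partners were chosen as subunits with mostly short mRNAs, with a median longest transcript of 3349.5 bases, against 10986 in the cytosolic list. These 2 lists thus differ in length as well as in kind. Of the 60 partner subunits tested, 5 were higher (8.33%) and 5 lower in the RIP, with a median log2 fold change of 0.28. Over all genes tested, 8.44% were higher and 8.46% lower. Brpf1, a scaffold of MYST acetyltransferase complexes, was among those that rose (1.48), and the lowest were Ino80c (-1.59) and Kat7 (-1.34). Ino80c, a small INO80 subunit, had 118 and 107 CPM in the input and 53.4 and 39.8 CPM in the RIP (edgeR adjusted p = 0.00736). Of the 44 long cytosolic mRNAs tested, 34 were higher and 0 lower, with a median of 1.71, and the highest were the ubiquitin ligase Herc2 (2.68) and the cytolinker Plec (2.62) and the lowest Cenpf (0.25) and Fasn (0.33). The members' median of 1.35 lay between those of the other lists.

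The longest annotated transcript of the members had a median of 8717.5 bases (5180 to 19823), against 3293 bases over all genes tested. Over all genes the median log2 fold change in RIP over input was -0.33 for transcripts under 2 kb and 0.22 for 4 to 6 kb, and it reached 0.75 for 8 to 12 kb and 1.15 for 12 kb and over. The members had medians of 1.01 (12 genes) at 6 to 8 kb, 1.24 (23 genes) at 8 to 12 kb and 1.79 (9 genes) at 12 kb and over. In the same bins the tested genes outside the group had medians of 0.45, 0.72 and 1.02. The long cytosolic mRNAs stood above the members in each bin, at 1.59 (6 genes), 1.39 (20 genes) and 1.90 (18 genes). Partner subunits had 0.08 (5 genes) at 6 to 8 kb and 0.30 (2 genes) at 8 to 12 kb. Across the 47 members, Spearman's rho between length and fold change was 0.33, against 0.36 over the 10751 tested genes with a length. These are descriptions across genes of the same libraries, which are not independent replicates. With coding length, rho was 0.46 in the members and 0.49 over all genes. Long mRNAs that stood low were Ash1l (11644 bases, 0.21) and Tet3 (10904 bases, 0.49), and a shorter one that stood high was Kdm3b (6363 bases, 2.19).

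**Figure D3:**
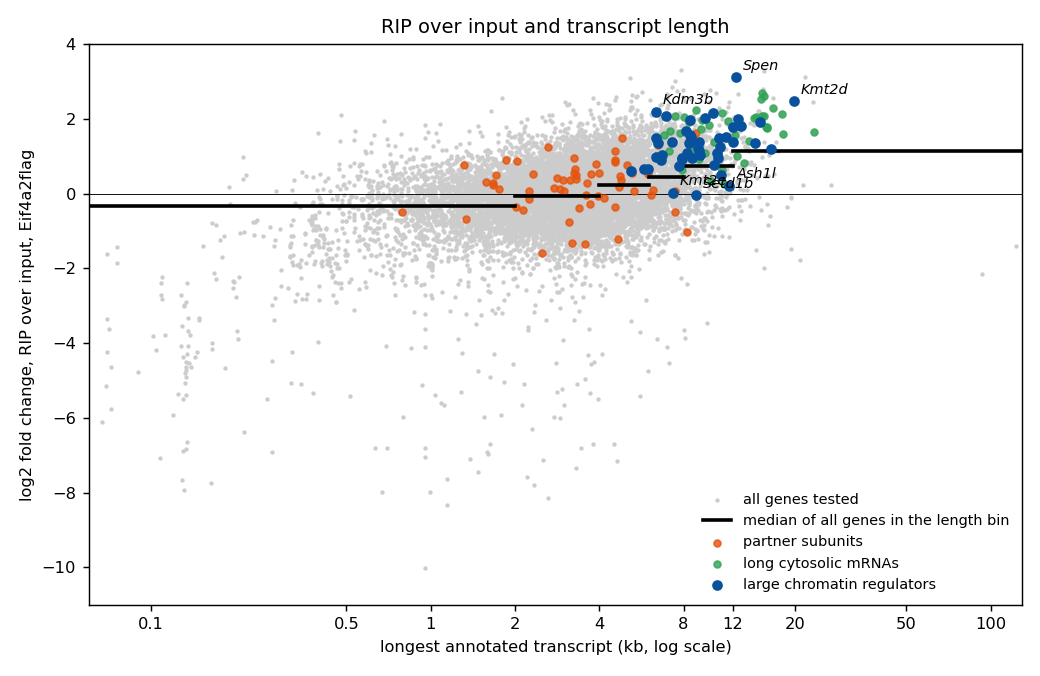
Log2 fold change of RIP Eif4a2flag over input Eif4a2flag against the longest annotated transcript (kb, log axis) for all genes tested, the members, their partner subunits and the long cytosolic mRNAs. Black bars give the median of all genes in each length bin, from -0.33 under 2 kb to 1.15 at 12 kb and over, and 46 of the 47 members lie above 0.

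The RIP from EV cells, which lack the tagged protein, gives the background of antibody and beads. Against RIP EV, 0 members were higher and 0 lower in RIP Eif4a2flag, as were 0 of all genes in either direction (edgeR on 4 libraries, background 0% both ways). Without adjustment 13 members had a higher and 2 a lower level at p under 0.05, against 2578 and 571 of all 10754 genes. The median log2 fold change of the members was 0.69, and that of all genes was 0.67. On library size alone these medians were 0.92 and 0.91. For 27 of 47 members both RIP Eif4a2flag values exceeded both RIP EV values, against 51.9% of all genes, and for 6 both were below, against 12.1%. With a shared spread, edgeR on all 8 libraries called 12 members higher and 2 lower (24.8% and 5.46% of all genes). DESeq2 called 8 and 2 on the 4 libraries (7.49% and 4.86%) and 19 and 2 on all 8 (30.4% and 10.5%), and limma voom called 0 and 0 (0% and 0.0837%). As shares of the 47 members, the counts called higher were 25.5% for edgeR on 8 libraries, and 17% and 40.4% for DESeq2 on 4 and 8 libraries. The counts by edgeR on the 4 libraries also moved when single libraries were left out. Shares of all genes are not given for those fits, so no excess of the members is read from them.

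The level of the members in RIP EV spread widely, with a median of the mean level of 77.1 CPM and a highest mean of 963 CPM. The highest log2 fold changes against RIP EV were those of Bcor (8.75, edgeR adjusted p = 0.0650), Arid1b (7.0, edgeR adjusted p = 0.0767) and Ep300 (4.52, edgeR adjusted p = 0.163). Bcor was at 0 counts in both libraries of RIP EV and had 104 and 74 counts in RIP Eif4a2flag, so its fitted value depends on the prior count of the fit and is no bound. Against a floor of 3 counts over both RIP EV libraries (0.557 CPM, counting error only) it was at least 15.0-fold higher, and against the floor of a single library at least 9.31-fold without RIP EV replicate 1 and at least 5.69-fold without replicate 2. Arid1b had 0 and 0.897 CPM in RIP EV, against 78.5 and 75.2 CPM with tagged eIF4A2. With 3 counts in RIP EV, its ratio of summed counts per gene read was 138, with an exact 95% counting interval of 47.2 to 671. Ep300 had 0.489 and 9.57 CPM against 108 and 173 CPM. Kmt2d had 0 and 12.9 CPM against 156 and 199 CPM, a fold change of 4.50 that was not called (edgeR adjusted p = 0.259).

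Spen had 0 and 30.8 CPM in RIP EV against 263 and 490.1 CPM in RIP Eif4a2flag. The groups did not overlap, and the RIP EV libraries differed widely from each other. The log2 fold change of 4.34 ± 2.06 (SE, n = 2 against 2) was not called (edgeR adjusted p = 0.287), like that of every gene in this fit to 4 libraries. In some of the other settings Spen was called higher, and in most of them it was not. Its fold change ranked between 315 and 2312 of 10754 over the settings that used all libraries, whereas in RIP over its own input it ranked between 3 and 5. Without RIP EV replicate 1 the value was 3.37. Apart from Bcor, 6 of the 48 genes were at 0 in 1 of the RIP EV libraries.

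At the other end stood Setd1b (-1.61, edgeR adjusted p = 0.0650), Smarcc1 (-1.50, edgeR adjusted p = 0.0699) and Chd6 (-1.45, edgeR adjusted p = 0.398). Smarcc1 had 1191 and 736 CPM in RIP EV against 348 and 444 CPM in RIP Eif4a2flag, and Setd1b 306 and 436 CPM against 155 and 131 CPM. For both, each RIP EV library lay above each RIP Eif4a2flag library. Chd6, a CHD remodeller, had 188 and 49.0 CPM against 40.8 and 59.8 CPM, which overlapped. Ncor1 (927 and 797 CPM), Crebbp (447 and 311 CPM), Atrx (368 and 263 CPM) and Chd3 (163 and 134 CPM) also had both RIP EV values above both RIP Eif4a2flag values, although Ncor1 and Chd3 had risen in RIP Eif4a2flag over its own input.

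Set against its own input, RIP EV held the members above other genes as well. The median log2 fold change of RIP EV over input EV was 0.62 for the members and -0.65 for all genes, and 31 of 47 members but 4025 of 10754 genes had a value above 0. The excess of the member median over the all-gene median was 1.27 in EV cells and 1.33 in Eif4a2flag cells. Both RIP EV libraries lay above both EV inputs for 21 members, against 14.6% of all genes, and below for 8, against 44.9%. No member was called in either direction (edgeR on 4 libraries, 0% of all genes both ways). Without adjustment, at p under 0.05, 10 had a higher and 1 a lower level, against 460 and 2715 of all 10754 genes. edgeR on all 8 libraries called 8 higher and 2 lower (4.50% and 26.3%), DESeq2 7 and 0 on 4 libraries (2.84% and 4.53%) and 14 and 4 on all 8 (10.0% and 32.0%), and limma voom 0 and 0. Leaving out either RIP EV library moved the edgeR counts in both directions, again without shares of all genes beside them.

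The highest values in RIP EV over input EV were those of Baz2b (2.98, edgeR adjusted p = 0.0871), Chd6 (2.92, edgeR adjusted p = 0.139) and Kmt2c (2.83, edgeR adjusted p = 0.243). Baz2b, a bromodomain partner of ISWI remodellers, had 22.4 and 23.4 CPM in input EV and 295 and 75.9 CPM in RIP EV. Kmt2c had 14.3 and 9.99 CPM in input EV and 159 and 20.6 CPM in RIP EV. In all 3 the first RIP EV library was several times the second, and both exceeded the inputs. The lowest were Bcor (-6.33, edgeR adjusted p = 0.0813), Arid1b (-4.83, edgeR adjusted p = 0.205) and Ep300 (-2.47, edgeR adjusted p = 0.517). For Bcor, at 0 counts in RIP EV and 9 and 13 counts in input EV, the fitted value again depends on the prior count, and against the same floor it was at least 4.76-fold lower in RIP EV (at least 2.95-fold without RIP EV replicate 1 and 1.80-fold without replicate 2). For Arid1b, the ratio of input EV to RIP EV was 29.5, with an exact 95% counting interval of 9.93 to 144. Ep300 had 32.1 and 22.8 CPM in input EV, above both RIP EV values. Spen had 23.8 and 16.2 CPM in input EV, within the span of its RIP EV values of 0 and 30.8 CPM. Spearman's rho between length and this fold change was 0.01 across the members and 0.13 over all genes. The all-gene median still rose with length, from -1.29 under 2 kb to -0.25 at 8 to 12 kb and 0.03 at 12 kb and over. The members had medians of 0.52 at 6 to 8 kb, 0.80 at 8 to 12 kb and 0.75 at 12 kb and over. RIP EV over input and RIP Eif4a2flag against RIP EV use the same RIP EV libraries, so these values are not independent of those against RIP EV.

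**Figure D4:**
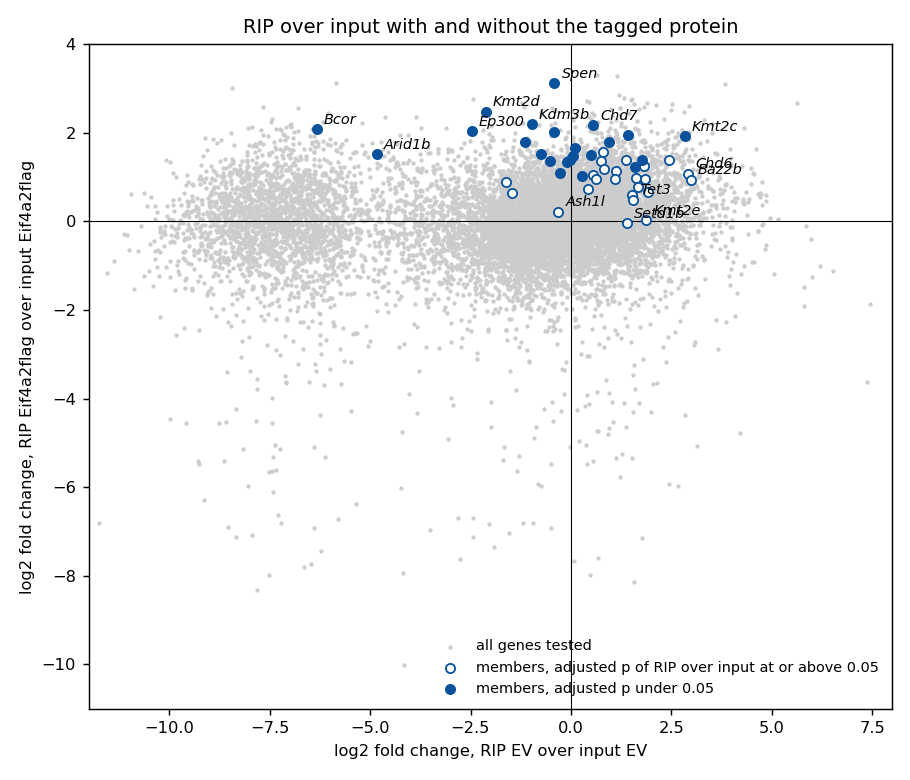
Log2 fold change of RIP over input in Eif4a2flag cells (vertical axis) and in EV cells (horizontal axis) for all genes tested (grey) and the members (blue, filled where the edgeR adjusted p of the vertical axis was under 0.05). The members lie mostly above 0 vertically and spread horizontally from Bcor at -6.33, a fitted value against 0 counts that is no bound, to Baz2b at 2.98.

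Of the 23 members called higher in RIP Eif4a2flag over its own input, 20 had both RIP Eif4a2flag libraries above both RIP EV libraries, Ncor1 and Chd3 had both below, and Kmt2c overlapped. Over all 10754 genes tested, 51.9% had both above and 12.1% both below. The 23 were chosen on the same RIP Eif4a2flag libraries, so the 20 is partly set by that choice. The share among all genes called higher was not computed. In EV cells the same 23 genes had both RIP libraries above both inputs in 6 cases, below in 6 and overlapping in 11. Over all genes tested, both lay above in 14.6% and below in 44.9%. The difference of RIP over input between Eif4a2flag and EV cells was tested in a model of all 8 libraries, whose shared spread lies between those of the groups. It was positive for 3 members and negative for 0 (edgeR adjusted p under 0.05), against 19.2% and 2.10% of all genes. The 3 were Bcor (9.09, edgeR adjusted p = 0.0178, a fitted value that depends on the prior count), Arid1b (6.31, edgeR adjusted p = 0.0277) and Kdm6b (2.5, edgeR adjusted p = 0.0496). DESeq2 called 10 and 1 members (24.5% and 5.65%), and limma voom called 0 and 0. For Spen the difference was 3.53 (edgeR adjusted p = 0.321). The edgeR count of 3 was higher when either RIP EV library was left out and lower when any other library was left out. No share of all genes stands beside those counts, so they are not given.

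To see whether re-expression moved the members in total RNA, the inputs were compared. No member was called in either direction by edgeR, DESeq2 or limma voom. At an unadjusted p under 0.05 in edgeR there were 0 and 0, against 402 and 394 of all genes. No gene of the 10754 was called by edgeR either (0%), and DESeq2 called 0.112% of all genes higher and 0.0465% lower on the 4 inputs and 0.102% and 0.0186% on all 8 libraries. The median log2 fold change was -0.00 for the members and -0.01 for all genes. Both Eif4a2flag inputs lay above both EV inputs for 9 members, against 19.8% of all genes, and below for 4, against 17.3%. The highest values were those of Tet3 (1.38), Baz2b (0.97) and Kmt2e (0.91) and the lowest those of Kdm3b (-1.03), Chd3 (-0.71) and Bcor (-0.59). Kdm3b had 11.7 and 14.4 CPM in input EV against 7.57 and 5.14 CPM, which did not overlap. Spen had 23.8 and 16.2 CPM against 40.7 and 29.9 CPM, also without overlap (0.79, edgeR adjusted p = 0.689). In these bulk samples fewer cells of a kind and less RNA per cell cannot be told apart.

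In the Eif4a2flag groups the replicates differed mostly one way over the members. Input Eif4a2flag replicate 1 was the higher of its pair for 40 of the 48 genes, and RIP Eif4a2flag replicate 2 was the higher for 36. In EV the splits were nearer to even, with input EV replicate 1 higher for 28 and replicate 2 for 20, and RIP EV replicate 1 higher for 19 and replicate 2 for 28. Of the 47 tested, the libraries of a pair differed by more than 2-fold for 24 members in RIP EV, 12 in input Eif4a2flag, 6 in input EV and 3 in RIP Eif4a2flag. Baz2a, for example, had 209 and 45.5 CPM in input Eif4a2flag, and its fold change of 1.57 in RIP over input was not called. The same held for Chd9, which had 83.8 and 25.2 CPM there and a fold change of 1.38. These splits were not counted over all genes tested, so they are not read as a trait of the members.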

How the data were processed

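RNA of 4 inputs and 4 anti-Flag RIPs from Eif4a2 KO ESCs was sequenced as QuantSeq 3′ tags. The authors deposited raw counts per gene, without normalization, in 1 table of 8 libraries. According to the methods and the submitters' processing notes, reads were trimmed with bbduk, mapped to mm10 with STAR (version 2.5.3a) and counted with HTSeq (version 0.11.2). Neither the release of the annotation nor the strandedness used for counting is stated in the sources used here, so overlapping genes are uncertain. The 5 summary lines stayed out of totals and tests, and their shares are given with the depth. Of the identifiers, 52403 matched GENCODE M21 (GRCm38), from which names, positions, lengths and sequences were taken. For coding sequence and 3′ end, the annotated mRNA with the longest coding sequence was used.

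Genes with at least 1 CPM in all 4 inputs were fitted with edgeR (version 4.0.16, R version 4.3.3), with TMM factors, quasi-likelihood tests and Benjamini-Hochberg adjustment over all genes tested at 0.05. Each comparison was fitted to its 4 libraries because RIP EV varied far more than the other groups, and the difference of differences to all 8. This departs from a single shared fit, which was an alternative beside DESeq2 (version 1.42.0, the study's tool), limma voom (limma version 3.58.1) with 1 quality weight per group, other scalings and filters, a replicate block, and leaving out each library. The fits were also run on simulated counts with 1 spread for every library, far below that of RIP EV (170.9%). That run therefore does not cover the comparisons that use RIP EV. Named members were Spen, the 4 highest and 4 lowest in RIP over input in Eif4a2flag cells, the 3 highest and 3 lowest in each other comparison, Smarca2, and of the other lists the 2 highest and 2 lowest, of which 1 is not reported here; all other members are given by role. The members, lists and rules were chosen with earlier results of these data known. Reads carry no molecular identifiers, so floors cover counting error only.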

Additional observations from a re-analysis of the deposited data

Results flagged for a closer look

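The difference of the RIP over input log2 fold change between Eif4a2flag and EV cells passed the test for Bcor (9.09), Arid1b (6.31) and Kdm6b (2.5), by edgeR on all 8 libraries. Bcor and Arid1b had 0 counts in 1 or both RIP EV libraries, so their values are set by the prior count of the fit as well as by the data. Kdm6b was at 10.3 and 10.2 CPM in RIP EV, against 30.3 and 31.5 CPM in EV inputs, and at 103 and 73.8 CPM in RIP Eif4a2flag, against 33.5 and 43.4 CPM in Eif4a2flag inputs. Its adjusted p was 0.0496 by edgeR. The RIP EV libraries had the fewest gene reads and the widest spread, and the part of both in these differences was not tested.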

How the results depend on the processing

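The count of members higher in RIP over input in Eif4a2flag cells was 23. It was 0 with edgeR and 10 with DESeq2 on all 8 libraries, 38 on library size alone, 37 without a filter on low counts, and 15 to 38 when single libraries were left out, and none was lower under any of these. The median of 1.35 ranged from 0.87 to 1.70 over the leave-outs. Against RIP EV, 12, 8, 19 and 5 members were higher with edgeR on 8, DESeq2 on 4, DESeq2 on 8 libraries and the replicate block, 2 were lower with each of the first 3, and the leave-outs gave 0 to 28 higher and 0 to 9 lower. The median there was 0.92 on library size alone and 0.42 to 1.08 over the leave-outs. Between inputs the median ranged from -0.32 without input Eif4a2flag replicate 1 to 0.38 without its replicate 2.

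In RIP EV over input, 8, 7, 14 and 4 members were higher with the same 4 settings, 2 were lower with edgeR on 8 and 4 with DESeq2 on 8 libraries, and the leave-outs gave 0 to 21 higher and 0 to 13 lower. That median was 0.45 with limma voom and 0.25 to 0.91 over the leave-outs. The difference of differences was positive for 10 and negative for 1 with DESeq2 (24.5% and 5.65% of all genes), and positive for 0 with limma voom (0%). The positive count also moved without a filter and with the replicate block. Both counts moved over the leave-outs. Spearman's rho with length was 0.46 in the members and 0.49 over all genes by coding length.

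The sign of a single gene turned in these cases. For RIP over input, Setd1b was at 0.26 on library size alone and between -0.16 (without input Eif4a2flag replicate 1) and 0.0783 (without input Eif4a2flag replicate 2) over the leave-outs, with 0.02 without RIP Eif4a2flag replicate 2. Kmt2e was at -0.0055 with DESeq2 on 4 libraries, -0.00427 with DESeq2 size factors, and -0.30 and -0.42 without the same 2 libraries. Ash1l was at -0.25 and -0.44 without them, in a range up to 0.84. Between inputs, Baz2b was at -0.038 without input Eif4a2flag replicate 1 and 1.58 without replicate 2, and Bcor at 0.29 without input EV replicate 2 and -1.25 without replicate 1. Spen in RIP EV over input was at 0.57 without RIP EV replicate 1 and -9.40 without replicate 2. It had 0 counts in replicate 1 and 103 in replicate 2, so the -9.40 depends on the prior count of the fit and is no bound. The causes of the other turns were not tested.

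Deviations of same-numbered libraries correlated between -0.069 and 0.127. With replicates this noisy, a low correlation cannot show that the samples were unpaired, so whether the numbers pair them was not settled. The main fits used no pairing, and with the replicate block the count of members higher in RIP over input stayed close to 23. At 2044853 and 3345151 gene reads, RIP EV limits every comparison that uses it. A leave-out that leaves 1 library in a group assumes that it varies like the other group. Where a setting has no share of all genes beside its count, no excess of the members was read from that count.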
